A study of Homo sapiens with 21 samples.

Results

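RNA-seq profiles of FADU cells carrying an expression vector for the long non-coding RNA (lncRNA) RP11-390F4.3 were compared with those of FADU cells carrying the control vector. FADU is an established human line from a squamous cell carcinoma of the hypopharynx, grown here in 18% oxygen (normoxia) for 18 hours. The overexpression table holds 6 libraries, 2 of RP11-390F4.3 cells, 2 of control-vector cells and 2 of cells carrying a METTL4 vector, out of 21 samples in the series. All 3 lines are stable transfectants that the study calls clones, and the control cells also carry a vector. RP11-390F4.3 was expressed from pcDNA3.1(+) and METTL4 from pcDNA3, so the backbones were not the same throughout, and differences between clones and effects of the inserts cannot be told apart. The sources used here do not state how many clones each line holds, which backbone the control line carries, which RP11-390F4.3 isoform was cloned, or whether the 2 libraries of a group come from separate cultures. The p-values below therefore measure the spread between these libraries, which may be technical. Of 18316 genes in the table, 15644 reached a value of 1 in 2 or more libraries and were compared, and values are TMM-normalized CPM, that is, read counts scaled for library size and composition. Parts of the text below also use knockdown libraries of the series, from FADU and from BFTC909, a human renal pelvis transitional cancer line. These carried a scrambled siRNA, in normoxia or in 1% oxygen, or a METTL4 siRNA in 1% oxygen, each for 18 hours.

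A lncRNA is transcribed like a messenger RNA but is not translated, and many lncRNAs stay in the nucleus and contact chromatin. METTL4 is a DNA and RNA adenine methyltransferase, and the study asked which genes follow METTL4 and this lncRNA in hypoxic tumour cells. In low oxygen the transcription factor HIF-1 is stabilised and binds short DNA elements with the core letters ACGTG, which raises glycolytic enzymes, glucose transporters, pH regulators and angiogenic factors. The epithelial-mesenchymal transition (EMT), in which carcinoma cells lose junctions and gain motility, is driven by transcription factors such as SNAI1, TWIST1 and ZEB1.

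RP11-390F4.3 was matched to the gene ENSG00000225489, annotated as a lncRNA on the plus strand of chromosome 9 at 6716157 to 6727438 (GRCh37, the build the authors aligned to). The match rests on the positions of the promoter primers of the study, of which the reverse primer ends on the last base of the 122-base exon that opens transcript ENST00000615168. The annotation gives 6 transcripts of the gene, and the gene overlaps the start of KDM4C on the same strand. The exon (chr9:6716495-6716616, plus strand, GRCh37) is shown because it places the annotated gene on the genome.
RP11-390F4.3 first exon: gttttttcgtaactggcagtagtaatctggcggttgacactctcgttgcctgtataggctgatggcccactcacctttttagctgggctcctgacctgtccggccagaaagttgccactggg

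The 6 libraries held between 20257044 and 25410656 reads on genes, and the replicate SD of a gene on the log2 scale was 0.126 in control cells, 0.111 in METTL4 cells and 0.135 in RP11-390F4.3 cells. The libraries carried squamous markers (KRT5, KRT14, KRT17, TP63, DSG3, SFN, KRT6A and PKP1, all 8 tested, summing to 2791 to 3599 CPM), while of the fibroblast, leukocyte and endothelial markers 1 of 9, 1 of 8 and 2 of 6 were in the table, and these summed to 2.54 to 5.91, 1.29 to 4.39 and 4.52 to 13.8 CPM. RP11-390F4.3 replicate 2 stood apart in a small set of genes. In this group, 41 genes lay more than 2-fold apart between the 2 libraries, against 20 in control and 9 in METTL4 cells. Of the 41, 22 were higher in replicate 2 and 19 in replicate 1, so this count alone does not single out replicate 2. IGFBP5, which encodes an insulin-like growth factor binding protein, was at 1.097 and 1.02 in control and 0.0805 and 13.5 in RP11-390F4.3 cells. GREB1, an oestrogen-responsive gene, was at 1.29 and 1.303 in control and 2.94 and 26.9 in RP11-390F4.3 cells, and the transcription factor gene GATA3 was at 2.67 and 2.65 in control and 2.98 and 16.5 in RP11-390F4.3 cells. Without replicate 2 the GATA3 and SYTL2 calls were lost (log2 0.12 and 0.52), while GREB1 and SPTSSB stayed called (log2 0.78 and 1.18). The GATA3 call also ended without either control library. The oestrogen receptor gene ESR1 was at 3.86 and 4.65 in control and 2.86 and 5.18 in RP11-390F4.3 cells, and of genes under the filter AGR2 was at 0.525 and 0.372 in control and 0.362 and 2.91 in RP11-390F4.3 cells and CA12 at 0.334 and 0.0931 in control and 0.644 and 5.23 in RP11-390F4.3 cells, both high in replicate 2 like GATA3 and GREB1. The summed luminal breast markers were 2312 and 2310 CPM in the 2 RP11-390F4.3 libraries, nearly all from KRT8 and KRT18. The part of other cells in replicate 2 was not tested.

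The overexpressed gene was checked first. The columns read as RP11-390F4.3 cells are headed MAHAC in the deposited table and were assigned because the table names 3 groups and the other columns are headed control and METTL4. RP11-390F4.3 RNA was at 12.9 and 13.4 CPM in control cells and at 23.9 and 25.1 in RP11-390F4.3 cells, a 1.86-fold difference (log2 change 0.85 ± 0.075 SE, adjusted p = 7.11e-07, limma with Benjamini-Hochberg adjustment). METTL4 cells, which carry no RP11-390F4.3 vector, had 21.8 and 21.7 CPM, and the RP11-390F4.3 cells were not called higher than them (log2 difference 0.16, adjusted p = 0.0827). Reads from the vector and from the cell's own gene cannot be told apart in these values. In the separately normalized knockdown table, FADU cells with a scrambled siRNA had 12.01 and 12.3 CPM in normoxia and 31.7 and 31.3 CPM in 1% oxygen (hypoxia), so the level in RP11-390F4.3 cells lay between the normoxic and the hypoxic level, on scales set by different tables. METTL4 RNA was at 35.4 and 32.7 in control, 158 and 139 in METTL4 and 30.04 and 28.9 in RP11-390F4.3 cells, and the difference of RP11-390F4.3 cells from control (log2 change -0.20 ± 0.067 SE, adjusted p = 0.0213) was below the 1.3-fold threshold used for calls.

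**Figure D1:**
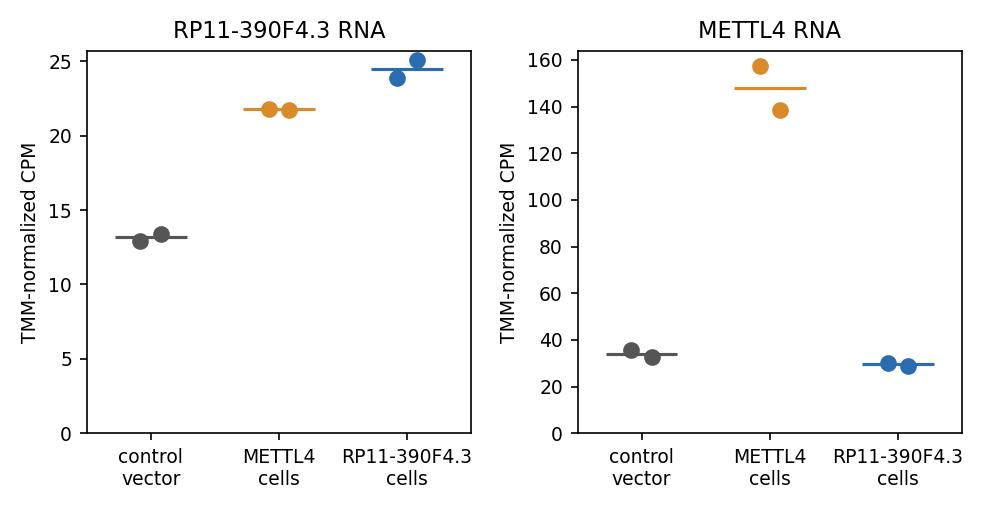
RP11-390F4.3 RNA (left) and METTL4 RNA (right) in TMM-normalized CPM on linear axes from 0, with 1 point per library and a line at the mean of each group. RP11-390F4.3 RNA is about as high in METTL4 cells as in RP11-390F4.3 cells, while METTL4 RNA stands above control in METTL4 cells and not in RP11-390F4.3 cells.

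Around the locus, 14 tested genes lay within 1 Mb of RP11-390F4.3. Beside RP11-390F4.3 itself, RIC1 was called higher (148 and 147 against 200.2 and 199; log2 change 0.44 ± 0.045 SE, adjusted p = 2.98e-06) and the low-level pseudogene RPS3AP54 was called lower (1.91 and 2.61 against 1.45 and 1.33; log2 change -0.44 ± 0.17 SE, adjusted p = 0.0472). The RIC1 call ended when libraries were centred on their medians, and the RPS3AP54 call ended without either RP11-390F4.3 library or without control replicate 2. KDM4C, a histone lysine demethylase whose gene overlaps the lncRNA, was at 100.4 and 104 in control and 131 and 129 in RP11-390F4.3 cells, a 1.27-fold difference that did not reach 1.3-fold (log2 change 0.35 ± 0.048 SE, adjusted p = 4.12e-05). KDM4C and the lncRNA lie on the same strand, so reads in their shared stretch cannot be told apart by strand. The neighbours UHRF2, KIAA2026 and RANBP6 had log2 changes of 0.05, 0.06 and -0.02 and were not called.

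A gene was called when it differed by at least 1.3-fold with an adjusted p under 0.05. In RP11-390F4.3 cells 2584 genes (16.5% of those tested) were called higher and 1955 (12.5%) lower than in control cells, 29% in either direction, and the median change of all tested genes was 0.01. The split depended on scaling, since centring each library on its median gave 1997 higher and 2852 lower. The median of the higher genes was 0.61 and of the lower genes -0.52 on the log2 scale. Large changes were mostly increases: 461 higher genes (2.95%) reached 2-fold against 62 lower genes (0.396%), and 61 reached 4-fold against 4. In 75.9% of tested genes the 2 control and the 2 RP11-390F4.3 libraries did not overlap, so a lack of overlap alone says little about any gene. All fold changes are on the log2(CPM + 1) scale, on which changes of low genes come out too small. Counts of called genes in the lists below are to be read beside the 16.5% higher and 12.5% lower of all tested genes. In METTL4 cells against control these shares were 8.0% and 10.5%.

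The genes of the hypoxia response rose together in RP11-390F4.3 cells although the cells were kept in normoxia. Like the other lists of gene functions below, their list was chosen with earlier results of these data known. Neither its counts nor theirs are independent evidence. Of 29 tested genes of this list 27 were called higher and 0 lower, with a median log2 change of 1.53, beside 16.5% called higher and a median of 0.01 over all tested genes. In the METTL4 cells, compared with the same control libraries, 21 were called higher and 0 lower, beside 8.0% and 10.5% of all tested genes, and the median was 0.76. NDRG1, a stress-response gene induced by low oxygen, was at 119 and 101 CPM in control cells and at 2052 and 2079 in RP11-390F4.3 cells (log2 change 4.23 ± 0.062 SE, adjusted p = 2.5e-14), with 667 and 642 in METTL4 cells. ANGPTL4, a secreted inhibitor of lipoprotein lipase, was at 2.58 and 1.67 in control and 58.5 and 60.4 in RP11-390F4.3 cells (log2 change 4.29 ± 0.14 SE, adjusted p = 2.15e-11). EGLN3, an oxygen-sensing prolyl hydroxylase that is itself a HIF target, was at 19.2 and 17.03 in control and 156 and 147 in RP11-390F4.3 cells (log2 change 2.998 ± 0.063 SE, adjusted p = 4.34e-13). In each of these genes both RP11-390F4.3 libraries stood above both METTL4 libraries, which stood above both controls. CA9, the carbonic anhydrase that tumours use to regulate pH, was at 0.906 and 0.744 in control, 9.39 and 9.15 in METTL4 and 13.6 and 13.2 in RP11-390F4.3 cells (log2 change 2.98 ± 0.12 SE, adjusted p = 1.91e-10). The filter counts all 6 libraries, and CA9 was under 1 in both controls, so it passed only through the overexpressing cells. The p-values of such genes are not independent support. BNIP3, a mitophagy receptor, was at 15.03 and 10.3 in control, 102 and 105 in METTL4 and 101 and 89.1 in RP11-390F4.3 cells, so here the METTL4 cells were as high as the RP11-390F4.3 cells. The stress-induced inhibitor of mTOR signalling DDIT4 was at 132 and 136 in control and 648 and 657 in RP11-390F4.3 cells (log2 change 2.28 ± 0.043 SE, adjusted p = 1.4e-13). The angiogenic factor VEGFA was at 191 and 154 in control and 306 and 311 in RP11-390F4.3 cells (log2 0.84 ± 0.076 SE), a smaller change than the median of the list. JMJD6 (log2 0.25) and IGFBP3 (log2 0.37) were the list members not called, though IGFBP3 was called without RP11-390F4.3 replicate 2. RNA of HIF1A, the oxygen-regulated subunit of HIF-1, was at 213 and 185 in control and 235 and 226 in RP11-390F4.3 cells and was not called (log2 0.22 ± 0.06 SE), and HIF-1 protein was not measured in these libraries.

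The hypoxia response genes were also read at their promoters, 300-base windows from 250 bases before to 50 bases after each start in RefSeq (GRCh38.p14), for the core letters ACGTG on either strand. The letters were in 16 of the 24 windows found for the list (66.7%), in 8 of 20 for the glycolysis list (40.0%), in 26.9% of the windows of tested genes and in 21.6% of all 27305 windows. Genes called higher held them in 25.7% and genes called lower in 27.8%, both close to the share of tested genes. The AP-1 list described below held them in 3 of 10 windows and the MAPK feedback list in 1 of 9. A match is a description of letters and not of binding. The hypoxia response list holds genes known to respond to low oxygen, so its share describes the list and not these cells. The windows of CA9 (chr9:35673678-35673977, plus strand), ANKRD37 (chr4:185396591-185396890, plus strand) and PPFIA4 (chr1:203026241-203026540, plus strand), of GRCh38.p14, are shown because these genes rose and their windows hold the letters alone or as the palindrome CACGTG, which counts on both strands. Capitals mark the matches, which begin at position -18 from the start in CA9, at -162, -161 and -143 in ANKRD37, and at -119 and -118 in PPFIA4.
CA9: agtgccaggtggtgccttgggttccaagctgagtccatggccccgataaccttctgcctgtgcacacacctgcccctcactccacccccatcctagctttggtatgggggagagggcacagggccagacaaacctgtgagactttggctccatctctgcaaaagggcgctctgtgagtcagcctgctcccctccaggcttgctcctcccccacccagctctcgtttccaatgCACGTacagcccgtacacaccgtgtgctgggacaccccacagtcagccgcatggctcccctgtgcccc
ANKRD37: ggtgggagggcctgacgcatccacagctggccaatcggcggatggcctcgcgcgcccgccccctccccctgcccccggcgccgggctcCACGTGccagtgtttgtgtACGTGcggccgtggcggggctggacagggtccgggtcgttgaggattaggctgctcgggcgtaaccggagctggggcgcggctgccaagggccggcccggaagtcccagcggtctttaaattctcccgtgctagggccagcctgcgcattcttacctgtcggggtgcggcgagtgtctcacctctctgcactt
PPFIA4: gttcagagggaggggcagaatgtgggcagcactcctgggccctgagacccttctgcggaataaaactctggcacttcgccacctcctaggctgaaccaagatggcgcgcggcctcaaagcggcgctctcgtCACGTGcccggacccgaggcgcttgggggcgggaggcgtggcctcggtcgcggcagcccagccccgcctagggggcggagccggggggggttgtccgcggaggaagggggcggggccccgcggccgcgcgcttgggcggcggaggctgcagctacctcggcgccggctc
ANKRD37, a HIF target of little-known function, was at 1.002 and 1.12 in control and 6.52 and 7.07 in RP11-390F4.3 cells (log2 1.92 ± 0.13 SE), and PPFIA4, a liprin scaffold gene, was at 2.91 and 3.12 in control and 19.6 and 26.3 in RP11-390F4.3 cells (log2 2.56 ± 0.13 SE).

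Glycolytic genes rose as well. Of 21 tested glycolytic genes 20 were called higher and 0 lower, with a median log2 change of 1.07, and only PFKM (log2 0.07) was not called. The METTL4 cells had 16 called higher and a median of 0.74. The neuronal-type glucose transporter SLC2A3 was at 6.73 and 7.54 in control, 17.2 and 17.7 in METTL4 and 134 and 131 in RP11-390F4.3 cells (log2 change 4.04 ± 0.071 SE, adjusted p = 1.02e-13). Reads of SLC2A3 and of its near-identical copy SLC2A14 may have been divided between them, so its level is uncertain. HK2, the inducible hexokinase that traps glucose in the cell, was at 50.3 and 53.9 in control and 304 and 306 in RP11-390F4.3 cells (log2 change 2.53 ± 0.048 SE, adjusted p = 1.4e-13), and ENO2, an enolase, was at 16.2 and 14.98 in control and 95.1 and 101 in RP11-390F4.3 cells (log2 change 2.58 ± 0.063 SE, adjusted p = 1.89e-12). Other members changed less. LDHA, which makes lactate, was at 804 and 776 in control and 1918 and 1825 in RP11-390F4.3 cells (log2 1.24 ± 0.049 SE), and GAPDH was at 3034 and 3164 in control and 4814 and 5109 in RP11-390F4.3 cells (log2 0.68 ± 0.059 SE). The widely expressed glucose transporter SLC2A1 was at 299.9 and 283 in control and 703 and 704 in RP11-390F4.3 cells (log2 1.27 ± 0.047 SE).

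A list of genes drawn from the knockdown experiments was then followed into the overexpression table. That list holds the 200 genes that were higher under hypoxia and lower with METTL4 siRNA in both FADU and BFTC909 cells (1.3-fold, unadjusted p under 0.05), and it shares no library with the overexpression table. METTL4 RNA itself differed by a log2 of -0.02 between METTL4 and scrambled siRNA in the hypoxic FADU libraries (24.2 and 27.1 against 26.6 and 25.3 CPM). These FADU libraries thus do not show METTL4 RNA lowered by the siRNA. The word co-induced below only names the list, and induction of its genes by METTL4 was not tested. Of the 198 list genes tested, 135 (68.2%) were called higher in RP11-390F4.3 cells and 3 lower, with a median log2 change of 0.77, beside a METTL4 median of 0.40 with 99 called higher and 6 lower. Of all tested genes 16.5% were higher and 12.5% lower in RP11-390F4.3 cells, and 8.0% and 10.5% in METTL4 cells. The 3 lower genes were FLACC1 (log2 -0.59) and the unnamed ENSG00000272520 and ENSG00000242349 (log2 -0.58 and -0.52), and the FLACC1 call ended without control replicate 2. Of the 159 protein-coding members 116 were higher and 1 lower. The list holds 18 lncRNAs, RP11-390F4.3 among them, and 10 of these were called higher and 0 lower. RP11-390F4.3, the gene of the vector, is itself counted in the 10 and in the 135, so its own call says nothing about other genes. MIR210HG, the host transcript of the hypoxia-induced microRNA miR-210, was at 2.05 and 2.14 in control, 6.76 and 5.53 in METTL4 and 13.1 and 14.8 in RP11-390F4.3 cells (log2 change 2.27 ± 0.13 SE, adjusted p = 6.36e-09). KDM7A-DT, a divergent transcript at the demethylase gene KDM7A, was at 0.477 and 0.372 in control and 4.99 and 4.797 in RP11-390F4.3 cells (log2 2.05 ± 0.14 SE). Like CA9, KDM7A-DT passed the filter only through the overexpressing cells. The list members that led the increase were ANGPTL4, NDRG1 and STC1, a secreted glycoprotein hormone that was at 14.9 and 11.96 in control, 128 and 112 in METTL4 and 155 and 153 in RP11-390F4.3 cells (log2 change 3.43 ± 0.084 SE, adjusted p = 1.88e-12).

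A wider count used every gene that changed with hypoxia in FADU cells with the scrambled siRNA. There 12.4% of tested genes were higher and 12.5% lower under hypoxia by the same criterion. Of the 1908 hypoxia-induced genes that were tested here, 847 (44.4%) were called higher and 84 lower in RP11-390F4.3 cells, with a median log2 change of 0.32. Of the 1988 hypoxia-repressed genes, 188 (9.46%) were called higher and 470 (23.6%) lower, with a median of -0.14. Of all tested genes 16.5% were called higher and 12.5% lower in RP11-390F4.3 cells. Read the other way, 33.7% of the genes called higher in RP11-390F4.3 cells rose under hypoxia and 7.48% fell, and of the genes called lower 24.2% fell and 4.32% rose. Most called genes were thus not called under hypoxia.

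**Figure D2:**
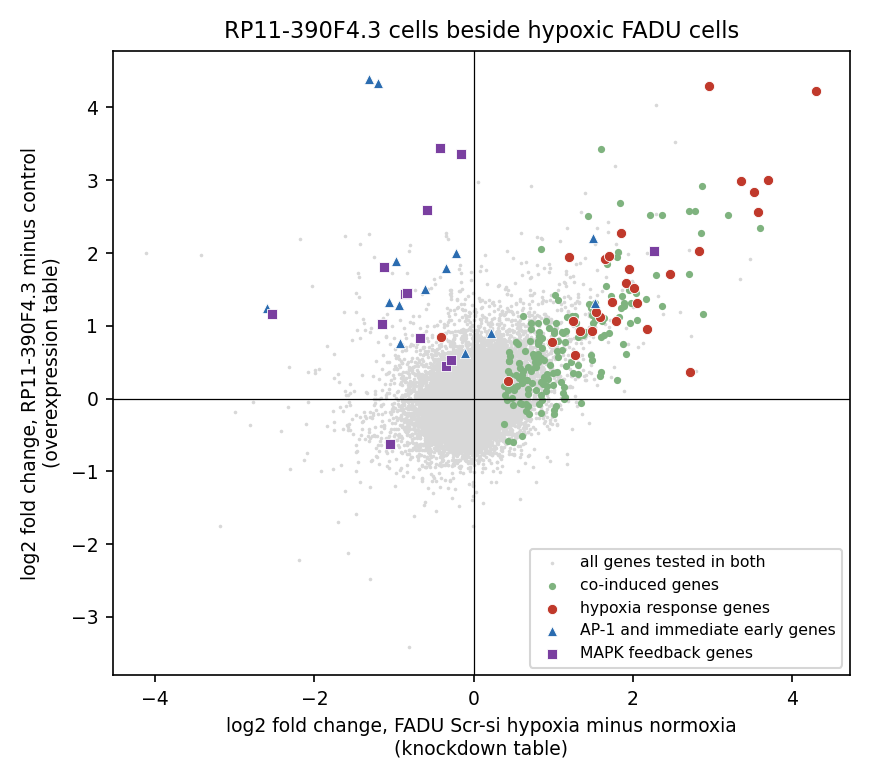
Log2 fold change of RP11-390F4.3 over control cells (vertical) beside that of hypoxic over normoxic FADU cells in the knockdown table (horizontal), 1 point per gene tested in both, with the co-induced, hypoxia response, AP-1 and MAPK feedback genes marked. Hypoxia response genes lie mostly at the upper right, while AP-1 and MAPK feedback genes lie mostly above 0 vertically and below 0 horizontally.

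Immediate early genes, FOSB and FOS among them, rose in RP11-390F4.3 cells. Immediate early genes are transcribed within minutes of growth factor or stress signals, and FOS and JUN proteins pair to form the AP-1 transcription factor. All 14 tested genes of this list were called higher in RP11-390F4.3 cells (median log2 change 1.42), while the METTL4 cells had 3 higher and 3 lower (median -0.08) and the hypoxic cells of the knockdown table had a median of -0.77. FOSB was at 5.44 and 4.98 CPM in control, 3.73 and 4.71 in METTL4 and 123 and 135 in RP11-390F4.3 cells (log2 change 4.39 ± 0.10 SE, adjusted p = 1.17e-12). FOS was at 29.4 and 24.3 in control, 13.4 and 12.6 in METTL4 and 553 and 571 in RP11-390F4.3 cells (log2 change 4.34 ± 0.073 SE, adjusted p = 8.42e-14). The 2 genes thus stood above control in RP11-390F4.3 libraries and not in METTL4 libraries, a difference that was tested directly (FOS log2 5.33, adjusted p = 1.06e-14; FOSB 4.65, adjusted p = 1.37e-12). JUN was at 59.8 and 46.7 in control and 215 and 212 in RP11-390F4.3 cells (log2 change 1.99 ± 0.084 SE, adjusted p = 4.02e-10), and EGR1, a zinc finger factor, was at 194 and 142 in control, 79.6 and 75.6 in METTL4 and 389.6 and 401 in RP11-390F4.3 cells (log2 1.25 ± 0.097 SE). EGR1 was thus above control in RP11-390F4.3 cells and below it in METTL4 cells. ATF3, a stress-induced bZIP factor, was at 3.34 and 2.14 in control and 15.7 and 16.2 in RP11-390F4.3 cells (log2 change 2.201 ± 0.14 SE, adjusted p = 3.8e-08). FOSL1 was higher in METTL4 than in RP11-390F4.3 cells, at 78.3 and 64.6 in control, 259 and 228 in METTL4 and 118 and 124 in RP11-390F4.3 cells, and MYC changed least in the list (log2 0.63 ± 0.051 SE).

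The genes that MAPK signalling induces to restrain itself rose in the same libraries. Of 13 tested feedback genes 12 were called higher and 1 lower, with a median log2 change of 1.44, and the METTL4 cells had 10 higher and a median of 1.04. DUSP6, a phosphatase that inactivates ERK, was at 32.4 and 22.7 in control, 103 and 99.4 in METTL4 and 303 and 305 in RP11-390F4.3 cells (log2 change 3.44 ± 0.11 SE, adjusted p = 1.59e-11). DUSP1, a nuclear MAPK phosphatase, was at 10.4 and 9.12 in control, 32.7 and 26.9 in METTL4 and 106 and 113 in RP11-390F4.3 cells (log2 change 3.36 ± 0.089 SE, adjusted p = 4.43e-12). PHLDA1 was at 54.2 and 41.04 in control, 124 and 121 in METTL4 and 301 and 279.9 in RP11-390F4.3 cells (log2 change 2.597 ± 0.09 SE, adjusted p = 5.66e-11), so in all 3 genes the METTL4 libraries lay between the others. DUSP4 was at 22.6 and 18.2 in control, 61.9 and 56.7 in METTL4 and 47.03 and 46.3 in RP11-390F4.3 cells, and the difference between the 2 overexpressing lines was not called. The lower member was EPHA2, an ephrin receptor, at 191 and 171 in control and 118 and 115 in RP11-390F4.3 cells (log2 change -0.63 ± 0.053 SE, adjusted p = 4.79e-07). The median of the list in hypoxic FADU cells was -0.68, and SPRY1, an inhibitor of receptor tyrosine kinase signalling, was above 0 in both (log2 2.02 in RP11-390F4.3 cells, 2.26 under hypoxia).

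Inflammatory and NF-kB genes were higher in 14 of 17 tested members and lower in 0, with a median log2 change of 1.18, against a METTL4 median of 0.24 with 7 higher and 3 lower. PTGS2, the inducible cyclooxygenase, was at 6.96 and 6.33 in control, 48.95 and 41.1 in METTL4 and 58.4 and 60.3 in RP11-390F4.3 cells (log2 change 2.98 ± 0.084 SE, adjusted p = 7.23e-12). The neutrophil chemokine CXCL8 was at 26.6 and 26.9 in control, 68.5 and 67.2 in METTL4 and 130.1 and 129.9 in RP11-390F4.3 cells (log2 change 2.24 ± 0.05 SE, adjusted p = 8.59e-13). TNFAIP3, an inhibitor that NF-kB itself induces, was at 28.9 and 32.4 in control, 70.6 and 70.1 in METTL4 and 87.02 and 86.4 in RP11-390F4.3 cells (log2 change 1.47 ± 0.059 SE, adjusted p = 2.34e-10). These genes were raised in both overexpressions. NFKBIA, which encodes the inhibitor of NF-kB, was at 57.3 and 57.7 in control, 49.6 and 47.8 in METTL4 and 131 and 132 in RP11-390F4.3 cells, so the RP11-390F4.3 libraries alone stood above control (log2 1.18 ± 0.049 SE). IL1RN, IL6 and CXCL3 were not called (log2 -0.09, 0.22 and 0.42), though CXCL3 was called without RP11-390F4.3 replicate 2 or control replicate 2.

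Interferon-stimulated genes moved in opposite directions in the 2 overexpressions. In RP11-390F4.3 cells 16 of 29 tested genes were called higher and 0 lower (median log2 change 0.56), and in METTL4 cells 0 were called higher and 23 lower (median -0.63). The median of the list in hypoxic FADU cells was 0.59. The direct comparison of the 2 lines called 28 of the 29 higher in RP11-390F4.3 cells, beside 18.4% of all tested genes. IFI27, a mitochondrial protein gene strongly induced by type I interferon, was at 7.44 and 10.2 in control, 5.42 and 6.03 in METTL4 and 83.7 and 92.3 in RP11-390F4.3 cells (log2 change 3.19 ± 0.12 SE, adjusted p = 9.9e-11). IFI6 was at 7.97 and 8.701 in control, 3.88 and 3.49 in METTL4 and 35.3 and 35.6 in RP11-390F4.3 cells (log2 change 1.97 ± 0.097 SE, adjusted p = 2.09e-09), and OAS2, a sensor of double-stranded RNA, was at 4.91 and 5.54 in control, 3.08 and 3.76 in METTL4 and 18.04 and 17.2 in RP11-390F4.3 cells (log2 change 1.58 ± 0.12 SE, adjusted p = 1.33e-07). Other members were not called. IFIT1, which binds foreign RNA, was at 40.3 and 44.02 in control and 53.96 and 50.1 in RP11-390F4.3 cells (log2 0.30). The increase thus did not run through the whole list. ISG15, a ubiquitin-like modifier, was at 25.9 and 28.8 in control and 67.6 and 77.1 in RP11-390F4.3 cells (log2 1.37 ± 0.075 SE).

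Of 12 MHC class I genes, which present peptides to T cells, 5 were called higher and 0 lower (median 0.29), while the METTL4 cells had 8 lower (median -0.48). HLA-B was at 31.4 and 27.2 in control, 23.96 and 23.2 in METTL4 and 103 and 101 in RP11-390F4.3 cells (log2 change 1.77 ± 0.068 SE, adjusted p = 1.71e-10). HLA-F was at 5.87 and 5.63 in control and 11.6 and 11.8 in RP11-390F4.3 cells (log2 0.91 ± 0.11 SE). Class I genes resemble each other, so reads may have been divided among them and the single levels are uncertain.

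The EMT regulators that the study followed did not move as a group. The study itself picked these genes, so their count is not independent evidence. Of the 7 listed, 5 were tested, 2 were called higher, 1 lower and 2 not called (median log2 change 0.23). The sign of this median turned when only genes with a mean of at least 5 were kept (-0.36). That filter left only TCF3 and SOX2. SNAI1, which represses E-cadherin, was at 1.34 and 1.16 CPM in control, 1.14 and 0.952 in METTL4 and 2.98 and 3.04 in RP11-390F4.3 cells (log2 change 0.84 ± 0.14 SE, adjusted p = 0.00029). TWIST1 was at 2.62 and 3.26 in control, 5.17 and 4.35 in METTL4 and 4.91 and 5.18 in RP11-390F4.3 cells (log2 change 0.62 ± 0.14 SE, adjusted p = 0.00169). Both genes are low, and with a pseudocount of 5 neither was called. ZEB1 was at 1.48 and 1.303 in control, 4.42 and 4.03 in METTL4 and 1.89 and 1.71 in RP11-390F4.3 cells and was not called in RP11-390F4.3 cells (log2 0.23 ± 0.14 SE), where the direct comparison placed it below METTL4 cells (log2 -0.90, adjusted p = 9.85e-05). TCF3 was at 69.2 and 64.8 in control and 71.8 and 75.1 in RP11-390F4.3 cells (log2 0.13, not called). SOX2, a pluripotency and squamous lineage factor, fell from 9.59 and 6.65 to 4.27 and 3.77 (log2 change -0.84 ± 0.15 SE, adjusted p = 0.000432) and was at 3.78 and 4.44 in METTL4 cells. ZEB2 was under the filter, at 0.191 and 0.326 in control and 0.846 and 1.11 in RP11-390F4.3 cells. Among 10 other tested EMT transcription factors 7 were called higher and 0 lower (median 0.43). SOX9, a developmental factor, was at 21.5 and 18.6 in control and 71.4 and 75.05 in RP11-390F4.3 cells (log2 change 1.82 ± 0.069 SE, adjusted p = 1.46e-10), HMGA2 at 48.7 and 42.6 in control and 73.3 and 74.2 in RP11-390F4.3 cells (log2 0.68 ± 0.061 SE), and TWIST2 at 3.01 and 2.98 in control and 5.19 and 5.35 in RP11-390F4.3 cells (log2 0.65 ± 0.12 SE), the TWIST2 call ending with a pseudocount of 5.

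Mesenchymal genes were called higher in 9 of 15 and lower in 1 (median log2 change 0.76). ITGA5, the fibronectin receptor subunit, was at 26.3 and 26.3 in control, 35.6 and 35.1 in METTL4 and 111 and 126 in RP11-390F4.3 cells (log2 change 2.12 ± 0.064 SE, adjusted p = 1.37e-11). LOX, a collagen cross-linking enzyme, was at 2.58 and 2.09 in control and 8.13 and 9.04 in RP11-390F4.3 cells (log2 change 1.53 ± 0.14 SE, adjusted p = 8.45e-07), and both genes had log2 changes above 0 under hypoxia (1.78 and 2.01). The intermediate filament VIM was low in every library, at 0.334 and 0.279 in control, 2.39 and 2.45 in METTL4 and 3.02 and 2.01 in RP11-390F4.3 cells (log2 1.41 ± 0.16 SE). Like CA9, VIM passed the filter only through the overexpressing cells. Fibronectin, FN1, was at 13.98 and 15.6 in control and 24.8 and 28.6 in RP11-390F4.3 cells (log2 0.81 ± 0.087 SE). N-cadherin, CDH2, fell from 14.6 and 14.1 to 8.13 and 6.98 (log2 change -0.85 ± 0.094 SE, adjusted p = 6.25e-06) and was at 21.4 and 20.2 in METTL4 cells.

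Most epithelial junction genes were not called. Of 26 tested 3 were called higher and 4 lower, with a median of 0.10, against 1 higher and 9 lower with a median of -0.25 in METTL4 cells. In RP11-390F4.3 cells the shares were 11.5% higher and 15.4% lower, beside 16.5% and 12.5% of all tested genes. E-cadherin, CDH1, was at 237 and 243 in control and 247 and 259 in RP11-390F4.3 cells and was not called (log2 0.08 ± 0.045 SE), whereas METTL4 cells had 143 and 137. The tight junction gene CLDN1 was at 63.5 and 63.5 in control, 14.6 and 15.6 in METTL4 and 65.9 and 68.6 in RP11-390F4.3 cells, and the direct comparison put RP11-390F4.3 above METTL4 cells in both (CDH1 log2 0.85, adjusted p = 4.86e-09; CLDN1 2.08, adjusted p = 1.86e-11). The higher genes were OVOL1, a factor that promotes epithelial identity (log2 1.07 ± 0.15 SE), JUP (log2 0.61 ± 0.05 SE) and PKP3 (log2 0.50 ± 0.057 SE). The lower genes were DSC3 (log2 -0.50 ± 0.049 SE), CGN, EPCAM and ESRP2 (log2 -0.44, -0.39 and -0.38). Leaving out RP11-390F4.3 replicate 1 ended the CGN and ESRP2 calls and replicate 2 the EPCAM call, and leaving out control replicate 1 ended the CGN and EPCAM calls and control replicate 2 the ESRP2 call.

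Squamous keratin and differentiation genes divided. Of 16 tested 9 were called higher and 4 lower (median 0.59), and in METTL4 cells 1 was higher and 10 lower (median -0.50). KRT4, a keratin of the suprabasal mucosa, was at 31.9 and 36.1 in control, 4.08 and 3.94 in METTL4 and 2.78 and 1.84 in RP11-390F4.3 cells (log2 change -3.41 ± 0.14 SE, adjusted p = 2.14e-10). Its mucosal partner KRT13 was at 30.8 and 27.7 in control, 6.96 and 6.12 in METTL4 and 6.16 and 5.78 in RP11-390F4.3 cells (log2 change -2.12 ± 0.10 SE, adjusted p = 1.72e-09). Both keratins were thus low in both overexpressing lines. KRT15 (log2 -1.09 ± 0.056 SE) and KRT5, the main basal keratin (2728 and 2661 against 1671 and 1506, log2 -0.76 ± 0.058 SE), were lower as well. KRT6A, a keratin of wounded and hyperproliferative epithelium, was at 28.1 and 25.9 in control and 73.5 and 80.4 in RP11-390F4.3 cells (log2 change 1.48 ± 0.069 SE, adjusted p = 1.27e-09), with its level uncertain because KRT6B and KRT6C are nearly identical. The calprotectin subunit S100A9 rose as well (log2 1.32 ± 0.16 SE), KRT17 was at 133 and 133 in control and 236 and 237 in RP11-390F4.3 cells (log2 0.83 ± 0.068 SE), and TP63, the basal lineage factor, at 227 and 206 in control and 393 and 384 in RP11-390F4.3 cells (log2 0.84 ± 0.049 SE).

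Of 20 integrins and laminins, which bind cells to the matrix, 10 were called higher and 1 lower (median 0.39), ITGA2 (79.8 and 79.6 against 238 and 239, log2 1.57 ± 0.046 SE) and ITGB5 (15.6 and 15.8 against 42.8 and 46.3, log2 1.45 ± 0.067 SE) after ITGA5, and ITGB8 was the lower 1 (log2 -0.45 ± 0.056 SE). Of 23 collagens and collagen-modifying enzymes 11 were higher and 3 lower (median 0.19). The prolyl hydroxylase P4HA1 was at 69.5 and 70.4 in control and 181 and 169.5 in RP11-390F4.3 cells (log2 1.31 ± 0.047 SE) and COL5A1 at 5.68 and 6.51 in control and 14.8 and 17.6 in RP11-390F4.3 cells (log2 1.27 ± 0.11 SE). LOXL4 fell (log2 -1.75 ± 0.15 SE), as did COL12A1 (log2 -0.77 ± 0.061 SE) and COL16A1 (log2 -0.73 ± 0.10 SE), and COL12A1 was higher than control in METTL4 cells (log2 0.80). Of 19 matrix proteases and inhibitors 10 were higher and 2 lower (median 0.57). PLAUR, the urokinase receptor, was at 4.53 and 4.98 in control and 16.7 and 16.96 in RP11-390F4.3 cells (log2 change 1.63 ± 0.10 SE, adjusted p = 2.86e-08), and the stromelysin MMP3 at 0.6201 and 1.02 in control, 10.1 and 8.65 in METTL4 and 2.58 and 2.96 in RP11-390F4.3 cells, highest in METTL4 cells. The collagenase MMP13 (log2 -0.82 ± 0.11 SE) and urokinase PLAU (log2 -0.38 ± 0.058 SE) were lower, the latter a call that ended without RP11-390F4.3 replicate 2 or control replicate 2.

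Of 19 TGF-beta signalling genes 8 were called higher and 1 lower (median 0.33). Members that rose included the activin subunit INHBA (0.286 and 0.186 against 2.09 and 1.46, log2 1.16 ± 0.16 SE) and the latent TGF-beta binding protein LTBP2 (18.4 and 17.03 against 33.3 and 37.6, log2 0.96 ± 0.073 SE). With a pseudocount of 5 INHBA was not called (log2 0.37), and like CA9 it passed the filter only through the overexpressing cells. The ligand TGFB2 was the lower member (3.43 and 2.51 against 1.81 and 1.84, log2 -0.48 ± 0.15 SE), a call that ended without control replicate 1 or either RP11-390F4.3 library. BAMBI, called higher (log2 0.78), had 2.01 and 5.05 CPM in the 2 RP11-390F4.3 libraries, and its call ended without replicate 2 (log2 0.28) or without control replicate 1. Of 12 YAP target genes 3 were higher and 1 lower (median -0.09), while METTL4 cells had 7 higher (median 0.59). The matricellular gene CCN2 was at 6.68 and 7.26 in control, 14.1 and 14.8 in METTL4 and 23.7 and 24.03 in RP11-390F4.3 cells (log2 change 1.64 ± 0.088 SE, adjusted p = 4.53e-09) and the ectonucleotidase NT5E at 15.4 and 12.98 in control, 78.1 and 71.9 in METTL4 and 71.3 and 65.96 in RP11-390F4.3 cells (log2 change 2.202 ± 0.077 SE, adjusted p = 6.14e-11). AXL, a receptor tyrosine kinase, was at 221 and 218 in control, 391.7 and 404 in METTL4 and 175 and 163 in RP11-390F4.3 cells, and the direct comparison placed it lower in RP11-390F4.3 than in METTL4 cells (log2 -1.23, adjusted p = 1.89e-10). Against control AXL was not called (log2 -0.38), though it was called lower by edgeR and DESeq2 on whole reads, with a pseudocount of 0.1, with median centring, and without RP11-390F4.3 replicate 1 or control replicate 2.

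Cholesterol and fatty acid synthesis genes differed between the 2 overexpressions. In METTL4 cells 22 of 22 tested genes were called lower (median log2 change -1.03), and in RP11-390F4.3 cells 5 were lower and 1 higher (median -0.19). The direct comparison called 20 of the 22 higher in RP11-390F4.3 than in METTL4 cells. SCD, the stearoyl-CoA desaturase, was at 906 and 953 in control, 126 and 130.1 in METTL4 and 804 and 820.1 in RP11-390F4.3 cells and was not called in the latter (log2 -0.19 ± 0.044 SE). DHCR7, which catalyses a late step to cholesterol, was at 149 and 142 in control, 49.998 and 47.1 in METTL4 and 98.98 and 101 in RP11-390F4.3 cells (log2 change -0.54 ± 0.05 SE, adjusted p = 1.17e-06), lower in both lines. STARD4, a sterol carrier, was at 103 and 92.2 in control, 34.2 and 36.2 in METTL4 and 143 and 139 in RP11-390F4.3 cells (log2 change 0.53 ± 0.058 SE, adjusted p = 5.06e-06), the member that was higher. Fatty acid synthase, FASN, was at 1325 and 1303 in control and 1279.9 and 1397 in RP11-390F4.3 cells (log2 0.03) and was not called.

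Integrated stress and unfolded protein response genes gave 6 higher and 3 lower of 19 (median -0.05). The pseudokinase TRIB3 (log2 0.64 ± 0.07 SE), CEBPB (log2 0.71 ± 0.084 SE) and VLDLR (log2 1.04 ± 0.084 SE) rose, and the endoplasmic reticulum chaperone HSPA5 fell from 645 and 638 to 453 and 424 (log2 change -0.55 ± 0.046 SE, adjusted p = 4.39e-07). SLC7A11 (log2 -0.46 ± 0.062 SE) and PSAT1 (log2 -0.44 ± 0.06 SE) were the other lower genes, calls that ended without control replicate 1 and without RP11-390F4.3 replicate 2, respectively. Of 19 NRF2 antioxidant genes 3 were higher and 3 lower (median -0.15), 15.8% each, beside 16.5% and 12.5% of all tested genes. Haem oxygenase HMOX1 fell from 14.6 and 15.96 to 8.01 and 7.45 (log2 change -0.90 ± 0.14 SE, adjusted p = 0.00016). Of 7 metallothionein and zinc transport genes 4 were higher and 1 lower (median 0.54). MT2A was at 70.8 and 64.3 in control, 245 and 193 in METTL4 and 216 and 242 in RP11-390F4.3 cells (log2 change 1.74 ± 0.088 SE, adjusted p = 2.54e-09), raised in both lines and uncertain because metallothionein genes are near-identical, and the zinc exporter SLC30A1 was lower (log2 -0.64 ± 0.084 SE).

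Part of the DNA replication genes were lower. Of 20 tested 0 were higher and 8 lower (median log2 change -0.34), against 3 higher and 0 lower in METTL4 cells (median 0.14). CDC6, which loads the replicative helicase, was at 123 and 119 in control, 139 and 140.2 in METTL4 and 82.9 and 74.1 in RP11-390F4.3 cells (log2 change -0.62 ± 0.055 SE, adjusted p = 6.81e-07). The polymerase subunit POLA1 was at 135 and 138 in control and 92.7 and 92.2 in RP11-390F4.3 cells (log2 -0.56 ± 0.044 SE) and cyclin CCNE2 at 14.9 and 16.7 in control and 10.6 and 10.5 in RP11-390F4.3 cells (log2 -0.54 ± 0.083 SE). PCNA (log2 0.00) and MCM4 (log2 0.04) were not called. Of 20 mitosis genes only the proliferation marker MKI67 was called, lower at 878 and 940.2 against 1304 and 1322 (log2 -0.53 ± 0.049 SE), and the median was -0.05. Among 18 p53 target genes 9 were higher and 0 lower (median 0.37), with the cyclin-dependent kinase inhibitor CDKN1A at 7.87 and 9.86 in control and 29.9 and 31.9 in RP11-390F4.3 cells (log2 change 1.700 ± 0.10 SE, adjusted p = 1.54e-08), PLK3 at 7.35 and 5.304 in control and 22.3 and 21.7 in RP11-390F4.3 cells (log2 1.67 ± 0.13 SE) and BTG2 at 2.67 and 2.28 in control and 6.97 and 6.85 in RP11-390F4.3 cells (log2 1.19 ± 0.13 SE). MDM2, the p53 ubiquitin ligase, was at 166 and 154 in control and 202 and 206 in RP11-390F4.3 cells (log2 0.35 ± 0.047 SE) and below 1.3-fold, though called without control replicate 1. Replication-dependent histones, whose RNAs mostly lack poly(A) tails, had 5 higher and 0 lower of 26 (median 0.18), led by H4C11 (log2 0.64 ± 0.13 SE). The 19.2% called higher lay close to the 16.5% of all tested genes. In these bulk libraries, fewer cells in a phase and less RNA per cell cannot be told apart.

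The mitochondrially encoded mRNAs fell in 8 of 13 members and rose in 0 (median log2 change -0.46), and their median in hypoxic FADU cells was -0.93. MT-CYB was at 2824 and 2504 in control and 1261 and 1463 in RP11-390F4.3 cells (log2 change -0.97 ± 0.081 SE, adjusted p = 4.12e-07), MT-ND3 at 797 and 644 in control and 356 and 427 in RP11-390F4.3 cells (log2 -0.88 ± 0.11 SE), and MT-ATP8 at 344 and 232 in control and 194 and 108 in RP11-390F4.3 cells (log2 -0.96 ± 0.20 SE). The MT-ATP8 call ended under DESeq2, and its log2 change ran from -1.38 to -0.54 as single libraries were left out. MT-CO1 was at 8674 and 8649 in control and 7853 and 8695 in RP11-390F4.3 cells and was not called. Nuclear-encoded respiratory chain genes were mostly not called, with 2 higher and 3 lower of 76 (median 0.14). Cytosolic ribosomal protein genes were higher in 36 of 78 and lower in 2 (median 0.35), with log2 changes from -0.62 to 0.65. RPL13 was at 293 and 312 in control and 465 and 488 in RP11-390F4.3 cells (log2 0.65 ± 0.048 SE) and RPS2 at 1455 and 1513 in control and 2118 and 2251 in RP11-390F4.3 cells (log2 0.56 ± 0.055 SE), and RPL36A (log2 -0.62 ± 0.096 SE) and RPS10 (log2 -0.48 ± 0.13 SE) were lower, RPS10 in a call that ended without RP11-390F4.3 replicate 2 or control replicate 1.

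Of 16 Notch and stemness genes 5 were called higher and 6 lower (median -0.17). The receptor NOTCH1 fell from 258 and 259 to 137 and 146 (log2 change -0.87 ± 0.051 SE, adjusted p = 1.34e-08) and was at 136 and 125 in METTL4 cells, and the Notch-modifying LFNG fell as well (log2 -0.92 ± 0.15 SE). The Notch target HES1 was at 31.4 and 26.4 in control and 60.1 and 60.48 in RP11-390F4.3 cells (log2 1.04 ± 0.075 SE), KLF4 at 14.5 and 16.5 in control and 31.4 and 33.3 in RP11-390F4.3 cells (log2 1.02 ± 0.085 SE), and the hyaluronan receptor CD44 at 365 and 343 in control and 619 and 637 in RP11-390F4.3 cells (log2 0.83 ± 0.045 SE). Of 15 angiogenic factors 7 were higher and 2 lower (median 0.32). Placental growth factor, PGF, was at 3.86 and 2.61 in control, 14.2 and 14.7 in METTL4 and 45.3 and 49.6 in RP11-390F4.3 cells (log2 change 3.53 ± 0.12 SE, adjusted p = 5.16e-11), and VEGFC, a lymphangiogenic ligand, at 5.49 and 5.12 in control, 20.8 and 18.9 in METTL4 and 18.2 and 18.3 in RP11-390F4.3 cells (log2 1.61 ± 0.091 SE). Thrombospondin, THBS1, an inhibitor of angiogenesis, was at 124 and 124 in control, 235 and 234 in METTL4 and 83.9 and 78.2 in RP11-390F4.3 cells (log2 -0.61 ± 0.047 SE), so it ran in opposite directions in the 2 lines.

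Among 12 other cancer lncRNAs 3 were called higher and 2 lower (median -0.14). UCA1 was at 25.7 and 29.03 in control, 63.2 and 63.1 in METTL4 and 107 and 118 in RP11-390F4.3 cells (log2 change 2.004 ± 0.066 SE, adjusted p = 3.48e-11). MIR210HG, described above, was the highest, and FTX and HOTAIR were lower (log2 -0.57 and -0.40), HOTAIR in a call that ended whenever any control or RP11-390F4.3 library was left out. The imprinted H19 was at 154 and 141 in control, 91.2 and 79.4 in METTL4 and 249 and 247 in RP11-390F4.3 cells (log2 0.74 ± 0.062 SE), higher in 1 line and lower in the other. The paraspeckle lncRNA NEAT1 was at 4766 and 4189.8 in control and 4088 and 4008 in RP11-390F4.3 cells and was not called (log2 -0.14). The list of adenine methylation and HIF pathway genes mixes genes the study followed with others of these pathways. Of its 13 tested genes, 2 (15.4%) were higher and 1 (7.69%) lower (median -0.07), beside 16.5% and 12.5% of all tested genes. These were ZMIZ1, a transcriptional co-activator (73.6 and 73.3 against 102 and 111; log2 change 0.53 ± 0.055 SE, adjusted p = 3.25e-06), PIK3CA, the catalytic PI3-kinase subunit (78.5 and 78.03 against 126 and 121; log2 change 0.65 ± 0.049 SE, adjusted p = 1.46e-07), and the RNA adenine methyltransferase METTL3 (62.3 and 63.5 against 44.1 and 43.9; log2 change -0.51 ± 0.052 SE, adjusted p = 3.21e-06). ZMIZ1 and PIK3CA were not raised in METTL4 cells (log2 0.03 and -0.13). ZMIZ1 and PIK3CA are among the genes the study picked, so their calls are not independent evidence.

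Decreases of 4-fold or more were few, and by the rule for named genes 12 lower genes were taken. After KRT4 the largest was in HTRA3, a serine protease, which was at 8.35 and 11.4 in control, 1.94 and 1.63 in METTL4 and 0.886 and 0.985 in RP11-390F4.3 cells (log2 change -2.48 ± 0.16 SE, adjusted p = 2.51e-08). ALPP, the placental alkaline phosphatase, was at 12.2 and 16.5 in control, 5.27 and 5.57 in METTL4 and 3.06 and 1.63 in RP11-390F4.3 cells (log2 change -2.22 ± 0.18 SE, adjusted p = 3.52e-07). MUC20, a mucin, was at 8.73 and 9.21 in control, 1.54 and 1.31 in METTL4 and 2.13 and 2.399 in RP11-390F4.3 cells (log2 change -1.61 ± 0.13 SE, adjusted p = 3.28e-07), so these 3 genes were lower in both overexpressing lines. RIPOR3 was at 16.03 and 19.9 in control, 15.3 and 15.5 in METTL4 and 4.67 and 4.54 in RP11-390F4.3 cells (log2 change -1.75 ± 0.11 SE, adjusted p = 2.01e-08), and was not called in METTL4 cells. CPA4, a carboxypeptidase, was at 14.7 and 14.98 in control, 30.6 and 29.5 in METTL4 and 5.64 and 3.98 in RP11-390F4.3 cells (log2 change -1.46 ± 0.12 SE, adjusted p = 2.59e-07), lower in RP11-390F4.3 and higher in METTL4 cells. The others beside KRT13 were ZSCAN31 (log2 -1.54 ± 0.083 SE), DNAH1 (log2 -1.47 ± 0.11 SE), the lncRNA ENSG00000270127 (log2 -1.42 ± 0.089 SE), the pseudogene PRKXP1 (log2 -1.299 ± 0.11 SE) and the mitochondrial tRNA gene MT-TQ (log2 -1.27 ± 0.16 SE).

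The direct comparison of the 2 overexpressing lines called 2876 genes (18.4%) higher and 2074 (13.3%) lower in RP11-390F4.3 than in METTL4 cells. METTL4 cells against the same control libraries gave 1251 higher (8.0%) and 1643 lower (10.5%). By this test hypoxia response genes were higher in RP11-390F4.3 than METTL4 cells in 23 of 29 and lower in 1 (median difference 0.55), and glycolysis genes in 6 of 21 (median 0.25). AP-1 genes were higher in 12 of 14 and lower in 1, squamous keratin and differentiation genes higher in 12 of 16 and lower in 2, and epithelial junction genes higher in 11 of 26 and lower in 0. DNA replication genes were lower in 11 of 20 and higher in 0. The co-induced genes were higher in RP11-390F4.3 cells in 83 of 198 and lower in 17 (median difference 0.30).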

How the data were processed

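Total RNA of 6 FADU libraries was depleted of ribosomal RNA and sequenced as stranded paired reads. After trimming (Trim Galore), the authors placed the reads on hg19 by HISAT2, took counts per gene by htseq-count and deposited a signal, the TMM-normalized CPM from edgeR (versions are not given in the sources used here). The METTL4 and RP11-390F4.3 columns came in 1 table, and that for RP11-390F4.3 is headed MAHAC and was assigned by elimination. The authors' own fold changes and p-values, deposited for the knockdown comparisons, were not used.

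Genes that reached a value of 1 in 2 or more libraries were tested with limma 3.58.1 in R 4.3.3 (trend, all 6 libraries sharing the spread) on log2(CPM + 1), with Benjamini-Hochberg adjustment over all tested genes. The fit was planned on these values, and 100% of the deposited values lay within 0.1 of a whole number of reads, so edgeR 4.0.16 and DESeq2 1.42.0 were run on the recovered whole reads as alternatives. Libraries held 20257044 to 25410656 reads, so a value of 1 CPM rests on 20.1 to 24.8 reads. Of 18316 genes 17763 were found in the annotation. Named genes were RP11-390F4.3, METTL4, the tested EMT regulators of the study, the 12 largest changes in each direction with a mean of at least 5 and no overlap between libraries, up to 3 called genes of each list in each direction, and genes within 1 Mb of RP11-390F4.3. Members and lists were chosen with earlier results of these data known, and further genes, outside this rule, were named after their values were seen. Alternatives covered the pseudocount, filter, spread, scaling, tool, block, threshold and each library left out. Some genes that this rule names are not reported here.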

Additional observations from a re-analysis of the deposited data

How the results depend on the processing

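Across 18 alternative settings, 3430 of 3629 values of the 204 named genes kept their side of the threshold without a called change of direction. Of 166 called named genes, 77 kept their call under every setting that tested them, and the 2-fold threshold ended 85 of the 166 calls. Some genes, HTRA3 for example, were tested under 17 settings, since their mean was under 5. Genes called higher numbered 1657 with a pseudocount of 5 and 461 at 2-fold. Genes called lower numbered 1195 with a mean of at least 5, 950 with a pseudocount of 5 and 62 at 2-fold. Against METTL4 cells, 1832 were higher with a mean of at least 5, 1785 with a pseudocount of 5 and 572 at 2-fold, and 1149 and 103 were lower with a pseudocount of 5 and at 2-fold. At 2-fold 74 co-induced genes were called and RP11-390F4.3 (log2 0.85) was not. Fewer genes enter with a mean of at least 5, and 2-fold is stricter by construction. For the other settings the cause was not tested. DESeq2 called 2154 higher and 1532 lower, edgeR 2596 and 2207, and median centring 1997 and 2852. Leaving out 1 library gave 2340 to 2558 higher, 1735 to 1916 lower, 2573 to 2895 and 1827 to 2076 against METTL4 cells, 131 to 136 co-induced genes and a log2 of 0.81 to 0.88 for RP11-390F4.3. Calls turned direction for 2 genes not called with all libraries: RPL4P5 ran from -0.46 (without replicate 1) to 0.54 and IGFBP5 from -0.93 (without replicate 2) to 2.82. In all, 15 named genes, all uncalled with all libraries, had log2 changes that crossed 0 over the settings. The medians of the EMT regulators (-0.36 with a mean of at least 5, only TCF3 and SOX2 left) and of the stress response list (0.04 without RP11-390F4.3 replicate 1) also changed sign. Leaving out genes whose RP11-390F4.3 libraries differ by over 2-fold, added after seeing the data, gave 2572 higher and 1955 lower.

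The libraries share only a replicate number, and deviations of same-numbered libraries correlated at 0.0834, 0.0746 and -0.0629. With the replicate block 2604 genes were higher and 1981 lower, 2910 and 2110 against METTL4 cells, and 135 co-induced genes were called. With 2 libraries a group, small changes in low genes were not detectable, and counts near the 1.3-fold threshold move with the pseudocount.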

Other observations

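Gene types differed in the direction of their calls. Of 12286 protein-coding genes 2243 (18.3%) were higher and 1226 (9.98%) lower in RP11-390F4.3 than in control cells, and of 1558 lncRNA genes 168 (10.8%) were higher and 345 (22.1%) lower, with a median log2 change of -0.14. In METTL4 cells 89 of the 1558 lncRNA genes were higher and 169 lower, beside 8.0% and 10.5% of all tested genes. The lower share was thus close to that of all tested genes. Small nucleolar RNA genes, which guide the modification of ribosomal RNA, were lower in 37 of 109 and higher in 4 (median -0.31), and in METTL4 cells 0 were higher and 2 lower. In RP11-390F4.3 cells processed pseudogenes had 73 higher (11.8%) and 93 lower of 620, with a median log2 change of -0.05. Of all tested genes 16.5% were higher and 12.5% lower. The share of processed pseudogenes called lower was thus close to that of all tested genes, and the share called higher was smaller.

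The urothelial markers were in the table for 3 of 7 genes, GATA3 among them, and summed to 11.5 and 10.9 CPM in control, 8.45 and 7.02 in METTL4, and 19.3 and 33.0 in RP11-390F4.3 cells, the higher value in replicate 2. GATA3 alone was at 2.98 and 16.5 in the RP11-390F4.3 libraries, so nearly all of the gap between them came from this gene.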
